A study of Mus musculus with 454 samples.

Results

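The 30 genes described here encode the ionotropic and metabotropic glutamate receptors and the vesicular and plasma membrane glutamate transporters, and they were taken by name from a fixed list. All 30 were present among the 36920 genes of the picked-cell read table and the 28001 genes of the droplet matrices. The list held 4 AMPA receptor subunits (Gria1 to Gria4), 7 NMDA receptor subunits, 5 kainate receptor subunits (Grik1 to Grik5), the delta subunit Grid1, 7 metabotropic receptors (Grm2 to Grm8), 3 vesicular transporters and 3 uptake transporters. All cells came from the nodose ganglion of wild type C57BL/6 mice, with no treatment named. They were freed with papain, collagenase and dispase. One droplet library held cells of mice aged 6 weeks, and its filtered matrix had 1087 neurons among 1108 barcodes. The picked cells, from mice aged 8 to 12 weeks, were amplified singly by Smart-seq2. They carried the target codes Port (9 mice of 2 to 19 cells each), GastG (60 cells, 5 mice), GastP (45 cells, 3 mice), IntL (44 cells, 3 mice), IntP (45 cells, 4 mice), IntM (45 cells, 3 mice) and IntD (35 cells, 3 mice). A further 53 cells of 4 mice carried the code na. The sources used here do not expand these codes, and Gast and Int stand below for all codes that begin so.

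Glutamate is the fast transmitter that vagal sensory neurons release in the brainstem. It is loaded into synaptic vesicles by the vesicular transporters and cleared by the uptake transporters of neurons and glia. AMPA, kainate and NMDA receptors are ion channels built from 4 subunits each, and an NMDA receptor needs the obligatory subunit Grin1. Metabotropic receptors act through G proteins, and those of group III (Grm4, Grm6, Grm7 and Grm8) are known as presynaptic brakes on release.

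In the droplet library Snap25 and Uchl1, a synaptic protein and a neuronal hydrolase, had a UMI in 100% of neurons and Tubb3 and Prph in 99.8%. Rbfox3, another neuronal marker, had one in 83.8%. The neurons were named from a marker list that holds these genes, so the shares describe them and are no separate check of the label. The median neuron held 56119 UMIs (unique molecular identifiers), of 68051490 in the filtered matrix. The raw matrix also gave 463 satellite glia-like barcodes with a median of 5337 UMIs, used below as the cells that should lack neuronal genes. All picked cells but 3 had the 2000 genes required, and median reads per cell lay between 1370328 in IntM and 1895910 in Port. The shallowest passing cell, from IntM, held only 3934 reads, while each cell of every other code held at least 565844. That cell was kept in the mean of its mouse, and its part there was not tested. A mouse's value below is log2(CPM + 1) averaged over its cells, where CPM is reads scaled to the total of the cell. A lower mouse mean can come from fewer cells of an expressing type or from less RNA per cell, which cannot be told apart in it.

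The vesicular transporter Slc17a6 (VGLUT2) was found in almost every neuron by both methods. It had at least 10 reads in all but 1 of the picked cells (99.8%, exact Clopper-Pearson 95% interval 98.8 to 99.99) and a UMI in 99.5% of droplet neurons, against 9.94% of satellite glia-like barcodes. Its mouse mean was 8.32 ± 0.18 in Gast and 8.31 ± 0.31 in Int (SD, n = 8 and 13), a log2 difference of 0.01 ± 0.11 (SE, limma adjusted p = 0.969) that was -0.06 with DESeq2 size factors. Across the 29 droplet neuron clusters it ran between 189.4 and 602.6 CPM. By length it was also the most abundant of the 30 in the picked cells, at 83.3 ± 12.4 RPKM (reads per kilobase of merged exons and scaled to the cell's total, mean and SD over the 33 mice of at least 4 cells, na included). Grin1 followed at 22.8 ± 4.23 RPKM.

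Slc17a7 (VGLUT1) was restricted to few neurons, and all of them also held Slc17a6, as did almost all neurons. A UMI of Slc17a7 was present in 13.2% of droplet neurons, against 0.648% of glia (2.30% against 0.247% with every cell thinned to 3000 UMIs), and 100% of these neurons had a UMI of Slc17a6. Cluster 24, of 20 neurons, reached 298.7 CPM and held 50.3% of all Slc17a7 UMIs, followed by clusters 18 and 23 at 60.8 and 54.2 CPM. The group III metabotropic receptor Grm8 had its highest levels in the same 3 clusters, at 26.8 CPM in cluster 18, 23.8 in cluster 24 and 15.2 in cluster 23. Grm4, of the same group, was highest in clusters 24, 18 and 5, at 32.2, 18.1 and 15.5 CPM. In single neurons, 63 held both Grm8 and Slc17a7 where 12.6 were expected from their separate shares, and 65 held both Grm4 and Slc17a7 against 20.8 expected. These neurons share 1 library, and deeper cells show more genes of any kind. Among the picked cells 4 had at least 10 reads of Slc17a7. They came from Port, GastG, IntL and na, were matched to clusters 18, 24, 23 and 24, and all 4 also had at least 10 reads of Grm8 and of Slc17a6. The third vesicular transporter, Slc17a8 (VGLUT3), had 9 UMIs in all and reached 10 reads in 0 picked cells, which allows a share of up to 0.818% (upper bound of the exact interval).

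The NMDA receptor transcripts were almost wholly Grin1 and Grin3a. Grin1 had at least 10 reads in 99.3% of picked cells and Grin3a, a subunit that lowers calcium flow through the receptor, in 56.1%. The Grin2 subunits, which carry the glutamate site of the conventional receptor, were scarce. At least 1 of the 4 reached 10 reads in 36 picked cells. All 36 also had Grin1, where 35.8 were expected from the separate shares. In the droplet library Grin2a had 12 UMIs, Grin2b 1, Grin2c 35 and Grin2d 1 over all 1087 neurons. Of the reads per length of the 7 NMDA subunits, Grin1 made up 86.4 ± 7.77% and Grin3a 12.2 ± 7.49% (mean and SD over 33 mice), and each Grin2 subunit averaged at most 0.423%. Transcripts of Grin3b overlap Tmem259 on the other strand and those of Grin1 overlap Grin1os. Whether reads were counted by strand is not stated, so such overlapping reads cannot be told apart.

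Among AMPA receptor subunits, Gria2, Gria3 and Gria4 were broad and Gria1 was rare. Gria2, the subunit that makes AMPA receptors impermeable to calcium once its transcript is edited, had at least 10 reads in 89.8% of picked cells, Gria4 in 94%, Gria3 in 88.2% and Gria1 in 5.57%. By length the shares of the 4 subunits, averaged over 33 mice, were 40.5 ± 9.38% for Gria2, 31 ± 8.63% for Gria4, 27.4 ± 3.79% for Gria3 and 1.08 ± 1.78% for Gria1. The shares of Gria2, Gria4 and Gria3 overlapped between mice. In the droplet clusters Gria1 peaked in clusters 27, 28 and 9 at 48.1, 47.2 and 39.6 CPM and was at 0 in 8 clusters. Gria2 was highest in cluster 21 at 792.0 CPM, then in cluster 12 at 246.2 and cluster 7 at 191.6, and lowest in cluster 26 at 2.31 CPM (1 UMI in 11 neurons). Cluster 21 stood apart in quality, with a median of 18946 UMIs and 26.8% mitochondrial UMIs, and its part in that level was not tested.

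Kainate subunits divided into broad and narrow genes. Grik5 and Grik4, the high-affinity subunits that need a partner to form a channel, had at least 10 reads in 79.5% and 67.9% of picked cells. The channel-forming subunits Grik1 and Grik2 reached that level in 21.8% and 31.2%, and Grik3 in 10.0%. By length Grik5 made up 44.9 ± 11.1% of kainate subunit reads, Grik4 30.6 ± 11.3%, Grik1 16.9 ± 16.7%, Grik2 5.33 ± 1.82% and Grik3 2.20 ± 2.06% (33 mice). Grik1 was the most uneven of these, with a share of 0% in the lowest mouse and 60.3% in the highest.

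Of the metabotropic receptors Grm7 was the broad one, with at least 10 reads in 94.9% of picked cells and a UMI in 75.6% of droplet neurons, against 1.73% of glia. Grm8, Grm4 and Grm3 reached 10 reads in 5.79%, 4.68% and 2.90% of picked cells, and Grm2, Grm5 and Grm6 in under 1%. Narrow did not mean low everywhere. Grm5, a group I receptor that couples to phospholipase C, stood at 51.1 CPM in cluster 8 and 45.8 in cluster 9, and these clusters accounted for 91.6% of its UMIs. Grm3, with 17 UMIs in all, had 64.7% of them in cluster 27, at 18.3 CPM, and Grm6 had 0 UMIs. In all, 12 of the 30 genes had at least 10 reads in at least 20% of picked cells. That number was 16 at 1 read, 5 at 100 reads and 3 with every cell thinned to 100000 reads, so it follows depth.

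**Figure D1:**
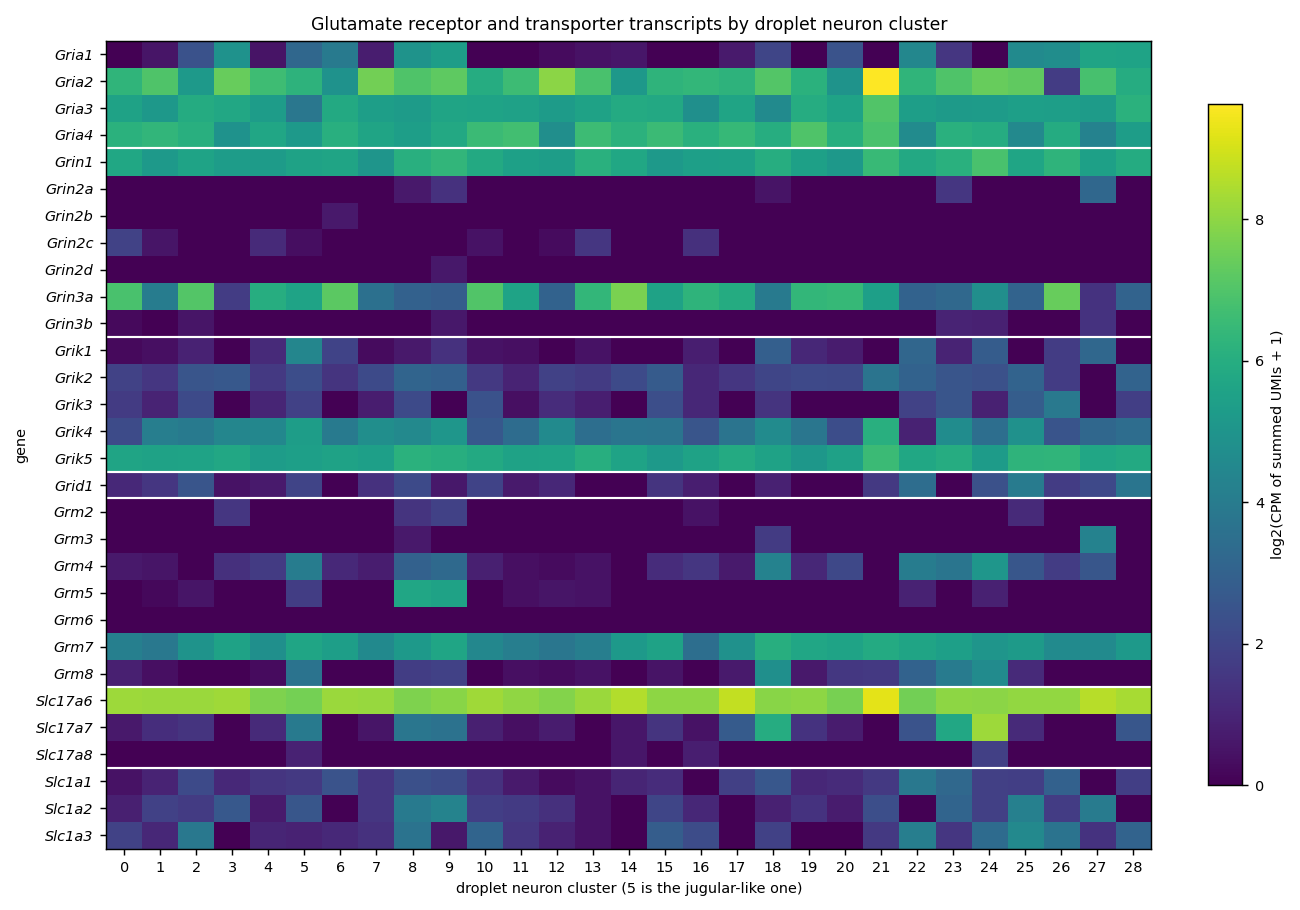
Level of each of the 30 genes in the 29 droplet neuron clusters, as log2(CPM + 1) of UMIs summed over a cluster's cells (colour scale), with genes down the page by role and clusters along the axis. Slc17a6 is high in every column, while Slc17a7 peaks in cluster 24 (298.7 CPM), Grm5 in clusters 8 and 9 (51.1 and 45.8 CPM) and Gria2 in cluster 21 (792.0 CPM).

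The clusters were built with the 30 genes left out of the variable genes. Of 22 members with at least 20 UMIs, 13 had a cluster at 5 times or more of their level over all neurons, and of all genes with 20 UMIs 16.1% did. Leaving out cluster 21 removed Gria2 from the 13. Over the 29 clusters the levels of Gria2 and Grin3a ran opposite to each other (Spearman -0.73, and -0.76 without cluster 21), as did those of Gria1 and Gria4 (-0.73). Grin3a peaked in clusters 14, 26 and 6 at 204.2, 166.4 and 145.99 CPM, where Gria2 was at 33.7, 2.31 and 28.97 CPM. These are descriptions of 29 points from 1 library, picked from 210 pairs of genes.

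Satellite glia, which wrap sensory neurons, held the transcripts of several receptor and uptake genes at higher levels than the neurons. Slc1a3 (GLAST), the glial glutamate uptake transporter, was at 115.8 CPM in glia and 3.09 CPM in neurons, a ratio of 37.5 (95% interval 31.4 to 44.9). The kainate subunit Grik3 was at 38.6 CPM in glia and 1.55 in neurons (24.9-fold, 18.9 to 32.9) and the delta subunit Grid1 at 25.1 and 1.71 (14.7-fold, 10.8 to 19.9). Grik2 was 4.32-fold higher in glia and the uptake transporter Slc1a2 (GLT-1) 3.09-fold. With 1 library there is no test, and these intervals, like all others of single counts here, cover counting error only.

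Thinned to 3000 UMIs per cell, which left out 58 of the glia and none of the neurons, Slc1a3 was seen in 30.1% of glia and 0.828% of neurons. The corresponding shares were 9.38% and 0.276% for Grik3 and 7.41% and 0.644% for Grid1. Without thinning, Slc1a3 had a UMI in 45.8% of glia and 14.1% of neurons. Gria3 differed little, at 41.1 CPM in glia and 42.7 in neurons (ratio 0.962, 0.792 to 1.16). The neuronal markers Tubb3, Snap25, Uchl1 and Prph gave glia over neuron ratios between 0.0763 and 0.125, and Rbfox3 gave 0.0482. Ratios in or below the range of these markers are not read as glial expression. Slc17a6 (0.0667), Gria2 (0.0768), Grin1 (0.110), Grm7 (0.0961) and Grin3a (0.0569) were in or below it. The source of these counts was not tested, and no doublet caller was run. Grik5 (0.516, 0.402 to 0.653) and Gria4 (0.303, 0.228 to 0.395) were above it.

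**Figure D2:**
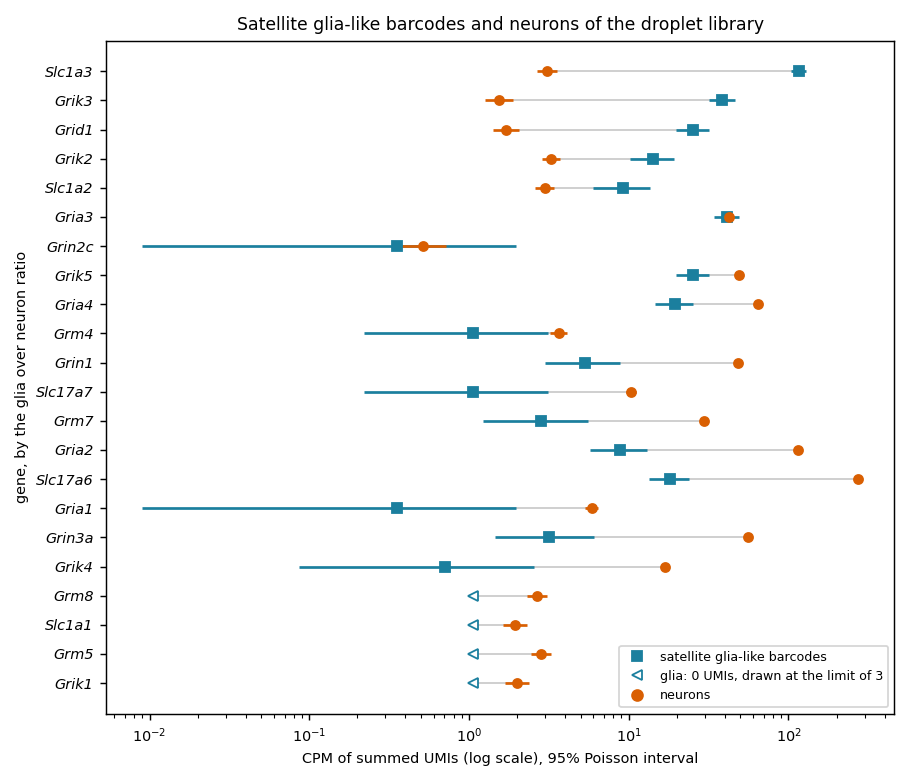
CPM of summed UMIs (log axis) in satellite glia-like barcodes (squares) and neurons (circles) for the 22 genes with at least 20 UMIs in neurons, with 95% Poisson intervals; open triangles mark 0 UMIs in glia, drawn at the limit that a count of 0 allows. Slc1a3, Grik3, Grid1, Grik2 and Slc1a2 lie higher in glia, and Gria3 is level. The genes at the bottom had 0 UMIs in the shallower glia, which does not show their absence there.

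Across neuron clusters the levels of Slc1a3, Grik3 and Grid1 followed the summed satellite glia markers. The Spearman correlation over 29 clusters was 0.90 for Slc1a3, 0.83 for Grik3 and 0.75 for Grid1. For Grik2 and Slc1a2, also higher in glia, it was 0.22 and 0.29. The neuronal levels of Slc1a3, Grik3 and Grid1 therefore move with glial transcripts in the same cells, and the part of those transcripts in them was not tested.

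Jugular-like neurons carried more Grik1 than the other neurons. Cluster 5, of 47 neurons, was jugular-like by markers such as Prdm12 and is set against the other 1040 neurons, whatever their markers. The rule that named cluster 5 was set after the clusters were seen. Several clusters among the other neurons, such as 8, 20, 23 and 24, also scored higher for jugular-like than for nodose-like markers. Cluster 5 and the other neurons had median depths of 72828 and 55638.5 UMIs. Past a 2-fold difference, 4 of the 22 members with 20 UMIs lay higher in jugular-like neurons and 2 lay lower. Among 14593 genes 7.2% were higher and 13.5% lower by that fold. Grik1 was at 20.2 CPM in jugular-like and 1.04 CPM in the other neurons (19.4-fold, 13.7 to 27.6), and 36.2% of jugular-like neurons had a UMI of it against 5.58% of the others. Its UMIs numbered 69 in the 47 jugular-like neurons, 67 in the 1040 others and 0 in the 463 glia. The glia were shallower, and their count of 0 allows up to 1.31 CPM (upper bound of the Poisson interval). That bound lies above the 1.04 CPM of the other neurons, so absence from glia is not shown.

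Grm8 was 5.35-fold higher in jugular-like neurons (3.67 to 7.65), Grm4 5.15-fold (3.73 to 7.01) and Grik4 2.55-fold (2.11 to 3.05). Gria3 was at 13.2 CPM in jugular-like and 44.3 CPM in the other neurons, a ratio of 0.298 (0.217 to 0.400). Slc1a3 was lower as well (0.275, 0.0562 to 0.814), on 3 UMIs in jugular-like neurons. Slc17a6 was at 194.4 CPM in jugular-like and 274.8 in the other neurons, within 2-fold. With every neuron thinned to 3000 UMIs the ratios moved to 66.4 for Grik1, 2.77 for Grm4, 0.137 for Gria3 and 0 for Slc1a3, on few UMIs. The direction of each held, and with the mean over cells Grik4 was 3.24-fold higher. The count past 2-fold moved as well. With the mean over cells 6 of 22 members lay higher and 3 lower, beside 1050 and 2190 of 14593 genes. Thinned, 3 of 11 members lay higher and 1 lower, beside 937 and 1936 of 9891 genes.

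Between target codes, 19 of the 30 genes had enough reads to be tested (10 reads in at least 5% of the cells), with 29 mice and 12681 genes in 1 limma fit. The 11 genes not tested were the 4 Grin2 subunits, Grin3b, Grm2, Grm3, Grm5, Grm6, Slc17a7 and Slc17a8. The sources used here do not say whether mice of a code were handled together or apart. Mouse numbers run partly in blocks by code, such as GastG 41 to 43 and Port 51 to 53. Code and mouse number thus cannot be fully told apart, and p-values measure the spread between these mice.

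The largest set of differences lay between Gast and Int neurons: Grik1, Grin3a, Slc1a1, Grm7, Grm4 and Gria1 were higher and Gria2 lower in Gast. These are 7 of the 19 members tested (6 higher, 1 lower). Grm4 had no Int cell with 10 reads, so it met the filter for testing only through the other codes. Gria1 met it mainly through them, at 10 reads in 10.7% of a Gast mouse's cells and 0.965% of an Int mouse's (means). The calls of these genes as higher are therefore not independent of the filter. Of all genes tested 14.8% passed, 9.07% as higher and 5.71% as lower. Over all 19 members the median log2 difference was 0.08, beside 0.07 over all genes. Of the calls over all genes 61.4% were higher in Gast with CPM and 46.3% with DESeq2 size factors.

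Grik1, the kainate subunit (chr16:87895900-88290265, minus strand, GENCODE annotation of GRCm38), had a mouse mean of 0.99 in the lowest, 2.53 in the median and 3.19 in the highest of 8 Gast mice, against 0, 0.49 and 0.97 in 13 Int mice. The 2 groups of mice did not overlap, and the share of all genes that separate in this way was not counted. The log2 difference was 1.98 ± 0.26 (SE, limma adjusted p = 3.27e-06). At least 10 reads of Grik1 were found in 43.1 ± 12.9% of a Gast mouse's cells and 7.56 ± 8.87% of an Int mouse's cells (SD over mice). As a share of kainate subunit reads per length it was 32.9 ± 18% in Gast and 5.12 ± 5.44% in Int, where Grik5 and Grik4 made up 51% and 36.1%.

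Grin3a had a lowest, median and highest mouse mean of 2.35, 3.87 and 6.11 in Gast, against 0, 2.74 and 4.51 in Int. The groups overlapped, and 7 of 8 Gast mice lay above the Int median. Its log2 difference was 1.64 ± 0.44 (limma adjusted p = 0.0104, and 0.0725 without GastP mouse 10). Its share of NMDA subunit reads per length was 18.8 ± 10.9% in Gast and 8.48 ± 4.87% in Int, while Grin1 as a level did not pass (log2 difference -0.01 ± 0.16).

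Slc1a1 (EAAC1), the neuronal uptake transporter, had mouse means of 0.82, 1.74 and 2.95 in Gast, against 0, 0.88 and 1.73 in Int, by the same order of lowest, median and highest. All but 1 Gast mouse lay above the Int median, and the difference was 1.13 ± 0.24 on the log2 scale (limma adjusted p = 0.00164). Its exons overlap 4430402I18Rik on the other strand.

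Grm7, the broad group III receptor, had mouse means of 5.15, 5.49 and 6.14 in Gast, against 3.63, 4.56 and 5.39 in Int. All 8 Gast mice were above the Int median although the ranges overlapped, and the log2 difference was 0.95 ± 0.14 (limma adjusted p = 2.78e-05). Its exons overlap Gm20387 on the other strand. Grm4, the rarer relative, was seen in few cells: 0, 0.51 and 1.64 in Gast, against 0, 0 and 0.20 in Int, with a log2 difference of 0.61 ± 0.14 (limma adjusted p = 0.00225). With the median over a mouse's cells it was 0.35 and did not pass (limma adjusted p = 0.190). No Int mouse had a cell with 10 reads of Grm4.

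The AMPA subunits that passed went in opposite directions. Gria1 was at 0, 0.43 and 1.12 in Gast, against 0, 0 and 0.44 in Int, a log2 difference of 0.44 ± 0.15 (limma adjusted p = 0.04998), and it no longer passed in 20 of 29 fits that left out 1 mouse (adjusted p 0.0076 to 0.203) or in 9 of 10 other settings. Gria2 was at 4.55, 5.53 and 6.04 in Gast, against 5.28, 6.96 and 7.61 in Int. All 8 Gast mice lay below the Int median, and the log2 difference was -1.24 ± 0.29 (limma adjusted p = 0.00339, and 0.107 with the median over a mouse's cells). Gria3 just missed the threshold (-0.94 ± 0.32, limma adjusted p = 0.0507). As a share of AMPA subunit reads per length Gria2 was 36 ± 7.68% in Gast and 45.6 ± 11.1% in Int.

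**Figure D3:**
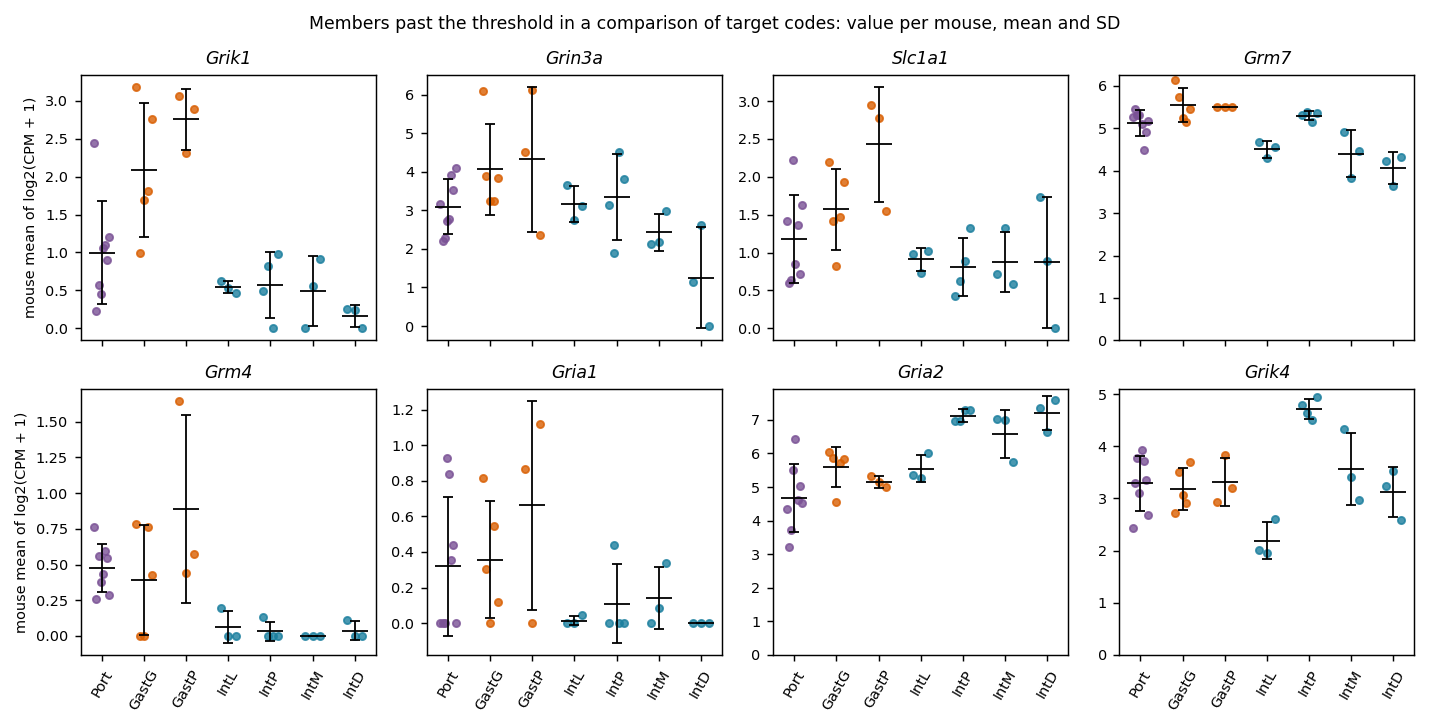
Mouse means of log2(CPM + 1) for the 8 genes that passed in a comparison of target codes, 1 point per mouse with the mean and SD of each code (8 Port, 5 GastG, 3 GastP, 3 IntL, 4 IntP, 3 IntM and 3 IntD mice). Grik1 has no Int mouse above 0.97 and no Gast mouse under 0.99, Gria2 is lower in Port, Gast and IntL mice than in most other Int mice, and Grik4 is lowest in IntL.

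The cells picked under each code differed in the droplet cluster they resembled most. Each picked cell was matched to 1 cluster, and cluster 4, led by the peptide gene Sst, took 40 Gast, 1 Int and 19 Port cells, while cluster 12 took 3 Gast and 55 Int cells. The jugular-like cluster 5 took 1 GastG cell, 1 GastP cell and 0 Int cells. A second fit used 86 means per mouse and matched cluster, each of at least 2 cells, with matched cluster as a covariate. In it 12 of the 12681 genes passed between Gast and Int and 0 of the 19 members did. The unit, the cells kept and the covariate all change in this fit, and the part of each was not tested. Grik1 had a log2 difference of 0.99 ± 0.30 (limma adjusted p = 0.205), Grin3a 0.78 ± 0.39, Slc1a1 0.52 ± 0.29, Grm7 0.39 ± 0.23 and Gria2 -0.53 ± 0.39. Within matched cluster 7 alone, which holds both, Gria2 was at 6.63 ± 0.88 in 5 Gast mice and 7.13 ± 0.25 in 11 Int mice, and Grik1 at 1.36 ± 1.04 in Gast and 0.50 ± 0.51 in Int. The Gast mice also had higher transcripts of the response to dissociation: 5 of 7 genes of that list were higher, with summed levels of 689.4 to 1426 CPM in Gast and 198.5 to 1296 CPM in Int. Of 5 nodose-like markers 3 were lower (1225 to 3912 CPM in Gast and 2743 to 9059 CPM in Int), of 3 tested jugular-like ones 2 were higher, and none of 7 satellite glia markers passed. The part of the dissociation response in the 7 differences was not tested.

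**Figure D4:**
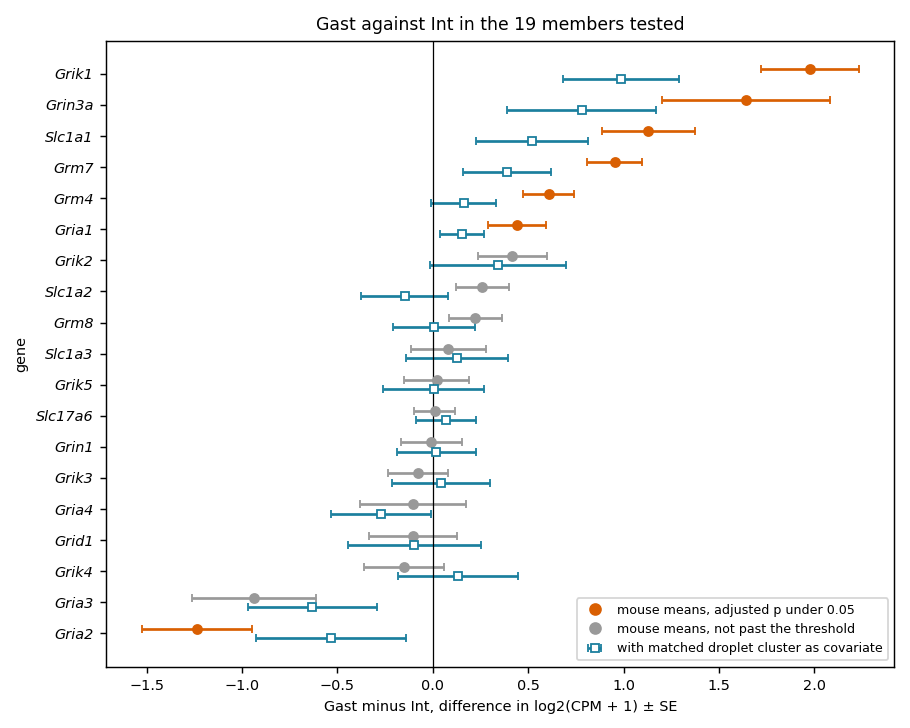
Gast minus Int difference in log2(CPM + 1) with its SE for the 19 genes tested, from mouse means (circles, filled in colour where the limma adjusted p was under 0.05) and with the matched droplet cluster as a covariate (squares). The difference of Grik1 is 1.98 by mouse means and 0.99 with the covariate, and Slc17a6 and Grin1 lie at 0.01 and -0.01.

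Of 50 other genes of glutamate signalling listed, 40 were tested and 7 passed between Gast and Int, 5 as higher and 2 as lower, beside 14.8% of all genes. Nptx2, a pentraxin that gathers AMPA receptors at synapses, was at 1.63, 3.08 and 4.23 in Gast (lowest, median and highest mouse mean), against 0.25, 0.82 and 2.06 in Int, a log2 difference of 1.89 ± 0.30 (limma adjusted p = 5.94e-05). Grip1, a scaffold that binds the tails of Gria2 and Gria3, was higher by 1.25 ± 0.23, and Grip2, Shisa6 and Cnih3 passed as higher too. The AMPA receptor auxiliary subunit Cacng3 (-0.81 ± 0.18) and the aminotransferase Got1 (-0.32 ± 0.07) were lower.

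Gria2 was also the 1 member that passed in Port neurons against Gast and Int, as lower. Of all genes tested 4.97% passed, 2.04% as higher and 2.93% as lower, and the median over the 19 members was -0.06 on the log2 scale, beside -0.04 over all genes. By edgeR 77.1% of the calls over all genes were higher in Port, where limma gave 41.1%. Mouse means of Gria2 were 3.22, 4.56 and 6.44 in 8 Port mice (lowest, median and highest), against 4.55, 6.00 and 7.61 in 21 Gast and Int mice. The ranges overlapped, with 7 of 8 Port mice under the median of the others, and the log2 difference was -1.32 ± 0.26 (limma adjusted p = 0.0112).

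The Port mice also differed in nerve injury transcripts. Port mouse 22, the lowest for Gria2 at 3.22, had 8597 summed CPM of the 7 nerve injury genes, mouse 27 was at 3.73 and 4602 CPM, and mouse 21 at 4.35 and 3024 CPM. The highest, mouse 47, was at 6.44 with 144.5 CPM, and mouse 46 at 5.51 with 239.6 CPM. The remaining Port mice lay between, mouse 53 at 4.53 and 2014 CPM, mouse 51 at 4.60 and 929.4 CPM, and mouse 52 at 5.04 and 1086 CPM. The part of these transcripts in the Gria2 difference was not tested. The Gast and Int mice had 96.5 to 2276 and 58.97 to 437.1 CPM, and 3 of 7 injury genes passed as higher in Port. Without the 4 mice of highest injury sums (Port 21, 22 and 27 and GastP 44) the difference was -0.79 (adjusted p = 0.136), and with matched cluster as covariate it was -0.55 ± 0.29 (adjusted p = 0.319). The call was also lost by edgeR on summed reads (adjusted p = 0.139). Gria3, which did not pass, had mouse means of 1.90 to 5.21 in Port and a log2 difference of -0.76 (limma adjusted p = 0.118).

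Of the 40 other glutamate genes tested 3 passed in Port, beside 4.97% of all genes. Slc1a4, a neutral amino acid transporter, and Slc38a1, a glutamine transporter, were higher by 0.72 ± 0.21 and 0.60 ± 0.14 on the log2 scale. Gls2, a glutaminase that makes glutamate, was lower (-0.74 ± 0.17, limma adjusted p = 0.0206).

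In IntL neurons Grik4 and Gria2 were lower than in the other Int codes, and no other member of 19 passed. Over all genes 5.52% passed, 3.04% as higher and 2.48% as lower, and the members' median was 0.08 on the log2 scale, beside 0.00 over all genes. By edgeR, 66.1% of 1070 calls over all genes were higher in IntL, where limma gave 55.1% of 700. Grik4 was at 1.96, 2.01 and 2.60 in the 3 IntL mice, against 2.59, 3.93 and 4.95 in 10 other Int mice (lowest, median and highest). IntL mouse 39, at 2.60, and IntD mouse 19, at 2.59, were the only mice whose ranges met. The log2 difference was -1.61 ± 0.30 (limma adjusted p = 0.00174, and -1.21 ± 0.35 with adjusted p = 0.101 with matched cluster as covariate).

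Gria2 was at 5.28, 5.35 and 6.00 in IntL, against 5.75, 7.0 and 7.61 in the other Int codes. IntM mouse 26, at 5.75, was the 1 other mouse in the IntL range. The log2 difference was -1.43 ± 0.41 (limma adjusted p = 0.0397), and -0.48 ± 0.43 with matched cluster as covariate (limma adjusted p = 0.735). It also no longer passed with no filter on low reads (adjusted p = 0.0735), with 8 cells per mouse (0.106) or with the median over cells (0.179). The same held in 9 of 29 fits that left out 1 mouse (adjusted p up to 0.230). Within matched clusters 7 and 12, which took 11 and 8 IntL cells, Gria2 was at 7.14 ± 0.22 and 7.31 ± 0.17 in IntL. Over all Int mice, the IntL mice included, it was at 7.13 ± 0.25 and 7.40 ± 0.28. The 2 sets share mice, so these values do not compare IntL with the other Int codes. Summed satellite glia markers were at 1941 to 2920 CPM in IntL, against 154.5 to 1223 CPM in the other Int mice, and of the 7 genes Apoe passed as higher. Dissociation genes passed as higher for 5 of 7 (965.5 to 1296 CPM in IntL and 198.5 to 951.7 in the other Int mice). The part of either in the 2 differences was not tested.

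The promoters of these 2 genes are shown because both fell in IntL. They are 300 bases from RefSeq on build GRCm38.p6, from 250 before to 50 after the transcript start, printed on the gene's strand. Gria2 lies at chr3:80802786-80803085 and Grik4 at chr9:42944322-42944621, both on the minus strand, and capitals mark the GC box GGGCGG or its complement CCGCCC.
Gria2: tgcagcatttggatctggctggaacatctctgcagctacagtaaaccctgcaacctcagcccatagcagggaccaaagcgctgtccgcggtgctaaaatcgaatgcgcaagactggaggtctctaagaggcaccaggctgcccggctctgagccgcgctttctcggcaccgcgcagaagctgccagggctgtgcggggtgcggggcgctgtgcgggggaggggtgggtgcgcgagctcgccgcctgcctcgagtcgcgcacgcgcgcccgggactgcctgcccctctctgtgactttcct
Grik4: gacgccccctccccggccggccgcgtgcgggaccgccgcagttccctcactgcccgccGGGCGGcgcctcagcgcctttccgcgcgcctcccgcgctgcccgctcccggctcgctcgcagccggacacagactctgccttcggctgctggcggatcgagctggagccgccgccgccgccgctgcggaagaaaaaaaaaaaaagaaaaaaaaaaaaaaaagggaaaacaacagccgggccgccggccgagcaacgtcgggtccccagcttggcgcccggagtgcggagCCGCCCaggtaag
A GC box was found at 2 places in Grik4 and at 0 in Gria2, and on either strand in 35.7% of 32851 promoters of this length. Among the 26 promoters of the 21 members found in the table, 14 held it. The cyclic AMP element TGACGTCA was in 0 of these 26 and in 1.79% of all promoters. CpG pairs numbered 42 in Grik4 and 26 in Gria2, beside a median of 7 over all promoters. These are counts of letters in a window and show no binding.

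Among the 40 other glutamate genes tested 3 passed in IntL, as higher, beside 5.52% of all genes in either direction. Cacng5, an AMPA receptor auxiliary subunit, was at 1.12, 1.31 and 3.15 in IntL mice, against 0, 0.25 and 0.96 in the other Int mice (log2 difference 1.53 ± 0.44, limma adjusted p = 0.0382). Shisa6 was higher by 1.22 ± 0.28 and Cnih2 by 1.11 ± 0.26.

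Across the 4 Int codes Grik4 and Grm7 differed, and 9.86% of all genes did. Mean Grik4 was 2.19 in IntL, 4.72 in IntP, 3.57 in IntM and 3.12 in IntD (limma F test, adjusted p = 3.26e-04, and 0.020 with matched cluster as covariate). All 4 IntP mice, at 4.50 to 4.95, lay above the other 9 Int mice, of which IntM mouse 15 was the highest at 4.33. Mean Grm7 was 4.51 in IntL, 5.29 in IntP, 4.40 in IntM and 4.06 in IntD (limma F test, adjusted p = 0.0063, and 0.185 with the covariate). The 4 IntP mice, at 5.13 to 5.39, lay above the 9 others, of which the highest was at 4.92. For both genes the F test does not single out IntP, and the share of all genes that separate in this way was not counted. Gria2 did not pass (adjusted p = 0.0705). Of the other glutamate genes that passed, Cacng3, Dlg2 and Neto2 had their highest mean in IntP, and Cnih2 and Shisa6 in IntL.

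Between GastG and GastP no member passed, and 0% of all genes did. At an unadjusted p under 0.05 limma gave 550 genes, among them 2 members, and edgeR gave 0 genes after adjustment. The 2 members were Grm4 (log2 difference -0.49) and Slc1a1 (-0.86), both with a limma adjusted p of 0.996. With 5 and 3 mice this does not show that the codes are alike.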

How the data were processed

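Droplet files, as deposited by the authors, hold counts of UMIs per gene and barcode, with gene and barcode names in files of unit other; Cell Ranger 2.0.1 and mm10 are named per the submitters' processing notes. The deposited picked-cell table holds log2 values of reads, unscaled by depth. Taken back to reads, 94.1% of values above the floor were whole within 0.001. The aligner of the picked cells and the strand of counting are not given in the sources used here. Its header lines, written by the authors, give mouse and target code; 1 column of no sample was not used.

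Picked cells passed at 2000 genes. Mouse means of log2(CPM + 1), with a pseudocount of 1, for mice of at least 4 cells entered 1 limma 3.58.1 fit over 7 codes, each code weighted equally within Gast and Int, in R 4.3.3. A gene needed 10 reads in 5% of cells, and Benjamini-Hochberg adjustment ran over the 12681 genes tested, with a threshold of 0.05. The replicate is the mouse. EdgeR 4.0.16 on summed reads, rounded to whole numbers, and DESeq2 1.42.0 size factors were alternatives; edgeR called 1894 genes between Gast and Int, limma 1874. The fits and interval methods were tested on simulated data. A covariate fit used means per mouse and matched droplet cluster of at least 2 cells, with the cluster of highest Spearman correlation over 625 genes.

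Droplet barcodes passed at 1000 UMIs and 500 genes. Neurons were clustered in scanpy 1.11.5 (Leiden, resolution 1.5) with members and other glutamate genes left out of the variable genes, and named from marker lists. No doublet caller was run. UMIs were summed to CPM with exact Poisson intervals at 95%, and a count of 0 allows 3 counts. All members are accounted for: those past the threshold are named with mouse values, and of the other glutamate genes the 2 highest and 2 lowest past it, any further ones being named by choice after their values were seen. The members and all lists were chosen with earlier results of these data known. Alternatives changed the tool, scaling, pseudocount, filter, cells per mouse, summary, cell mix, mice left out, depth and clustering. One gene of the other glutamate list is not reported here.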

Additional observations from a re-analysis of the deposited data

Results flagged for a closer look

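Within codes of 4 to 10 mice, 57 sets of 1 gene in 1 code were examined for a mouse whose gap to its nearest neighbour filled most of the range, and 8 were found. For normally distributed values chance alone picks about 1 in 20. A set with all mice but 1 at 0 is always picked, as for Gria1 and Grm4 in IntP. The rate of 1 in 20 therefore does not hold for genes of few reads. In IntP, mouse 12 (15 cells) stood apart for 3 genes: Gria1 was at 0.44 where the other mice were at 0, Gria3 at 4.93 against 5.49 to 5.56, and Grin1 at 6.82 against 6.35 to 6.38, all as mouse means of log2(CPM + 1). IntP mouse 16 (7 cells) had Grid1 at 0.62 against 0.97 to 1.00 in the other IntP mice, and IntP mouse 11 had Grm4 at 0.13 where the others were at 0. GastG mouse 41 (13 cells) had Gria2 at 4.55 against 5.73 to 6.04 in the other GastG mice. GastG mouse 7 had Grin3a at 6.08 against 3.24 to 3.89, from 5 cells. Port mouse 21 (16 cells) had Grik1 at 2.44 against 0.23 to 1.2 in the other Port mice, within the Gast range of 0.99 to 3.19.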

How the results depend on the processing

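Between Gast and Int 7 members passed, 5 to 8 under 9 alternatives and 6 to 8 without 1 mouse at a time, but 0 with matched cluster as covariate, which also left 12 genes of all tested. In Port 1 member passed, and 1 did in each fit without 1 mouse. The count was 0 by edgeR on summed reads, with 8 cells per mouse and with the median over cells. It was also 0 without the 4 mice of high injury transcripts and with the covariate. In mice numbered up to 39 it was 8, where the only Port mice were 21, 22 and 27. These were also the Port mice of highest injury sums, so mouse number and injury transcripts cannot be told apart in that setting. In IntL 2 passed, 4 by edgeR (with Grin3a and Slc1a3), 1 with 8 cells per mouse and 1 with the median, and 0 with the covariate; without 1 mouse it was 1 to 2, and Gria2 was lost without IntD 14 or 19, any IntL mouse, IntM 15 or 20, or IntP 16 or 17. Across Int codes 2 passed, 1 with 8 cells per mouse and 1 with the covariate, 4 without the injury mice and 4 in mice up to 39, and 2 to 3 without 1 mouse. Between GastG and GastP 0 passed throughout. Detection in 20% of cells held for 12 members, 5 at 100 reads and 3 thinned to 100000 reads. The Slc17a6 difference between Gast and Int turned to -0.0579 by edgeR, -0.0591 with DESeq2 size factors, -0.00507 with 8 cells per mouse and -0.0136 without the injury mice, and ran from -0.0529 to 0.0814 without 1 mouse; none passed. Shares of all genes called moved further. In Port 4.97% became 1.06% with no filter, 0.071% with 8 cells per mouse, 2.28% with the median, 1.08% without the injury mice, 27.9% in mice up to 39 and 1.71% with the covariate. Without 1 mouse it was 0.513% (Port 22), 0.536% (Port 27), 2.28% (Port 21), 2.68% (Port 53), 1.06% (GastP 10), 1.73% (GastP 9), 8.32% (Port 47) and 10.9% (GastP 44). In IntL 5.52% became 3.23% with no filter (18472 genes tested, and Gria2 at an adjusted p of 0.0735), 8.44% by edgeR, 3.57% with 8 cells, 2.54% with the median, 8.78% without the injury mice and 0.237% with the covariate, 0.844% without IntL 33 and 2.74% without IntL 34. Across Int codes 9.86% became 4.83% with no filter, 1.44% with 8 cells, 5.36% with the median, 16.2% without the injury mice and 2.09% with the covariate, and 4.33% to 6.10% without IntL 33, IntL 34 or IntP 11, 16 or 17. The 2 fits without droplet cluster 21 were chosen after seeing the data; they kept 6 members past 2-fold and 12 concentrated in a cluster, against 13. The cause was not tested in any of these. No paired analysis was possible because each mouse carries 1 target code. Depth limits the genes of few reads: 11 members went untested, and shares near 0 cannot be told from absence.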

Other observations

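Cells with the code na came from 4 mice and entered no comparison. Their mouse means of log2(CPM + 1) for Gria2 were 5.99, 7.22, 4.73 and 6.39 in mice 31, 32, 36 and 37. In the same order Grik1 was at 0.82, 1.29, 2.84 and 1.02, and Grin3a at 3.44, 1.41, 3.60 and 3.81. Mouse 36 was thus the lowest for Gria2 and the highest for Grik1, and mouse 32 the highest for Gria2 and the lowest for Grin3a. Slc17a6 stayed between 8.17 and 8.32 in all 4.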
